A study of Mus musculus with 4 samples.

Results

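Many genes can be transcribed from more than 1 promoter, and the genes described here have promoters spread over at least 10 kb. Their start sites, the 5′ ends of protein-coding transcripts in the GENCODE M21 basic annotation of mouse chromosomes 1 to 19, were merged into clusters where they lay within 1 kb of each other. A gene was a member where its clusters numbered 2 or more and the gap between the outermost was at least 10 kb. This gave 4445 start clusters in 1830 genes, of 26080 clusters in 20720 genes in all. Of the 1830 genes, 1284 had 2 clusters, 379 had 3, 121 had 4 and the remaining genes had 5 to 9. The gap between the outermost clusters had a median of 32600 bp (quartiles 16960 and 80525 bp), with a minimum of 10006 bp and a maximum of 2857087 bp.

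The chromatin came from the gastrocnemius, a calf muscle, of adult female mice of the strain B6CASTF1/J, a first-generation hybrid, aged 2 months. It was immunoprecipitated with an antibody to H3K27ac, an acetylated form of histone H3, and sequenced. The 2 biological replicates, each a pool of 2 tissue samples, had 2 technical libraries each, so there were 4 libraries and 1 group, and no treated or control group. The measurements were the authors' peak lists on mm10: a replicated list drawn from both replicates (84452 regions), a list for replicate 1 (70953) and a list for replicate 2 (86937). Replicate 2 had the longer list, read depth is unknown, and the part of list length in the differences between replicates was not tested.

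A gene with several promoters can switch one on while another stays silent, which changes the first exon and often the beginning of the protein or its regulation in a tissue. H3K27ac marks nucleosomes beside active promoters and at active enhancers, so acetylation at a start is a sign of which promoter is open for use, but it does not count transcripts. In muscle, such promoters are known to separate muscle forms from forms of nerve or blood, as in the genes of ankyrin-1 and CaM kinase II alpha. A start cluster is called acetylated here where a region lay within 1000 bp of it, and bare where none did. In whole muscle, acetylation in few nuclei and weak acetylation in many cannot be told apart. Some regions at a start may also be enhancers or belong to another gene. The label of the tissue was checked on 6 genes of muscle fibres (Acta1, Ckm, Myh4, Mylpf, Tnnt3 and Pvalb), all 6 of which had a region at a start, with signal values of 18.9 to 49.8. None of 4 genes of liver, pancreas, neurons and T cells (Alb, Ins2, Snap25 and Lck) had one in the replicated list, and Ins2 had a weak one in replicate 2 (4.03).

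The sequence around the starts differed plainly between those with and without acetylation, and Rcan1 shows part of this within 1 gene. Rcan1 encodes a regulator of the phosphatase calcineurin, which acts in fibre type control, and its promoters are known to be used differently, with the most 3′ one responding to calcineurin itself. Its 4 starts lie on the minus strand of chromosome 16 within 70.8 kb, and the second and the fourth were acetylated. Each sequence, read from the GRCm38.p6 (mm10) assembly of NCBI RefSeq, runs 5′ to 3′ from 180 bases before the start to 20 bases from the start on, so the start is base 181. Capitals mark CG dinucleotides, of which the acetylated starts 2 and 4 hold 26 and 12, and the bare starts 1 and 3 hold 3 and 5. In the wider window of 1000 bp used below to class starts, only start 2 is CpG-rich. Its observed over expected CpG ratio there is 0.97, while acetylated start 4 has 0.54, close to the 0.47 of bare start 3, and bare start 1 has 0.23.
Rcan1 start 1, bare, chr16:92470848-92471047, minus strand: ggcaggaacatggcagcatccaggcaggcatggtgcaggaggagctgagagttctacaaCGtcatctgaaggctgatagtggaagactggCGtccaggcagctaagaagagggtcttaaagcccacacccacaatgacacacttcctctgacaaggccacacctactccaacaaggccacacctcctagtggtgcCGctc
Rcan1 start 2, acetylated, chr16:92466127-92466326, minus strand: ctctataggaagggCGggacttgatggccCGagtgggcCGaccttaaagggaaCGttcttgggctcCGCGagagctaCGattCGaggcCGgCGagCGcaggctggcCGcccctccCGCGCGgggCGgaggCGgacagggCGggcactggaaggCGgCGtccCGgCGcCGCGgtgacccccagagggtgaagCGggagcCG
Rcan1 start 3, bare, chr16:92458456-92458655, minus strand: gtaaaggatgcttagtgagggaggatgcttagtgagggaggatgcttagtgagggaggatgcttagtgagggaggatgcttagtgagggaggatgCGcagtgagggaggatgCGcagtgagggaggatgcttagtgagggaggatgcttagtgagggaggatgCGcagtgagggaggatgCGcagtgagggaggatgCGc
Rcan1 start 4, acetylated, chr16:92400058-92400257, minus strand: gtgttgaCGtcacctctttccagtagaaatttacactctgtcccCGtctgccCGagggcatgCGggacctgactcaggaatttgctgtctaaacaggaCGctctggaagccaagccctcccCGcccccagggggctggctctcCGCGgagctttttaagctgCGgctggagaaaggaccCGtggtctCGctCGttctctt

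The next pairs show genes in which the upstream start alone was acetylated, in muscle genes of the lists used here. Dtnb encodes beta-dystrobrevin, of the dystrophin-associated protein family, and Nfat5 encodes a transcription factor of the response to osmotic stress. The upstream starts of Dtnb and Nfat5 hold 31 and 25 CG dinucleotides, marked in capitals, against 2 and 1 at their downstream starts.
Dtnb start 1, acetylated, chr12:3572201-3572400, plus strand: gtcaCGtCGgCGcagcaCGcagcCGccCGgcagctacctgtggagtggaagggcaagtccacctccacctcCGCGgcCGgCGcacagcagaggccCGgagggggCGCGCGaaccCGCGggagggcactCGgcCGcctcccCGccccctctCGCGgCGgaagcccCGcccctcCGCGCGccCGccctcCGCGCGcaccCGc
Dtnb start 2, bare, chr12:3588992-3589191, plus strand: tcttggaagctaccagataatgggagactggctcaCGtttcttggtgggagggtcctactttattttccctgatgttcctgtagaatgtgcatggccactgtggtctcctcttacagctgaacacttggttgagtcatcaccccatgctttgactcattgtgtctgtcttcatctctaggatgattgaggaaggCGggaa
Nfat5 start 1, acetylated, chr8:107293379-107293578, plus strand: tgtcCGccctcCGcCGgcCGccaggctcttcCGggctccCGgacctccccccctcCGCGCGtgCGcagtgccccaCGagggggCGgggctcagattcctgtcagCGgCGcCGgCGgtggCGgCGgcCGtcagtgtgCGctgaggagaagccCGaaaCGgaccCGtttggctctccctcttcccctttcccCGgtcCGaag
Nfat5 start 2, bare, chr8:107338627-107338826, plus strand: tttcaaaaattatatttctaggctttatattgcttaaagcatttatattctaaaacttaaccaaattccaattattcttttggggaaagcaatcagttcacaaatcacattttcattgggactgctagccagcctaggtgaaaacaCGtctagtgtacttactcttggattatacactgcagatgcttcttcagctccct

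Sgcd, which encodes delta-sarcoglycan of the dystrophin-associated complex, was acetylated at the downstream start alone. Both its starts are poor in CG dinucleotides, in capitals, with 6 at the acetylated start and 2 at the bare one.
Sgcd start 2, acetylated, chr11:47379503-47379702, minus strand: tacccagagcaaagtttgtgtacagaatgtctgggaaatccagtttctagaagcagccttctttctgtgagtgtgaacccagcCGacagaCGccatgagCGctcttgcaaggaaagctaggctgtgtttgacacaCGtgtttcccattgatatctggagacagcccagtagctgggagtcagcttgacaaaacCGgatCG
Sgcd start 1, bare, chr11:47578946-47579145, minus strand: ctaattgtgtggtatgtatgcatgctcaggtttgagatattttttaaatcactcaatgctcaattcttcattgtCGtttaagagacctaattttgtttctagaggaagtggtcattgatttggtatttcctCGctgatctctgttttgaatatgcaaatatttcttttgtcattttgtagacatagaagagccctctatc

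Ank1 holds starts that run the other way. It encodes ankyrin-1, the membrane-skeleton adaptor of red cells, and an internal promoter of the gene is known to make small ankyrin-1, a short protein of the muscle sarcoplasmic reticulum. The most 3′ of its 4 starts was acetylated and holds 5 CG dinucleotides in capitals, whereas the first start was bare and holds 36. Its other starts followed the more frequent pattern, start 3 being CpG-rich and acetylated and start 2 CpG-poor and bare, and only the pair that departs from it is shown. The acetylated start also holds the letters TATAAA and CAGCTG. Ank1 was added to the sequences after its values had been seen.
Ank1 start 4, acetylated, chr8:23138850-23139049, plus strand: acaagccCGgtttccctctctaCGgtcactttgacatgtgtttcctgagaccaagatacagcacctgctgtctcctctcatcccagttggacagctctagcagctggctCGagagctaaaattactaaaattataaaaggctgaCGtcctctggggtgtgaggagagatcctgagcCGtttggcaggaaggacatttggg
Ank1 start 1, bare, chr8:22974664-22974863, plus strand: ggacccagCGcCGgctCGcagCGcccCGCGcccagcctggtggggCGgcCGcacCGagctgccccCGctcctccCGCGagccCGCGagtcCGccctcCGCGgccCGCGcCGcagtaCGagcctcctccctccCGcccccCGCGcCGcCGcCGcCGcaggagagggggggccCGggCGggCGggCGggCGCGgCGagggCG

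About as many starts of these genes were acetylated as were bare. Of the 4445 start clusters, 2226 (50.1%) were acetylated, against 55.3% of all clusters of protein-coding genes. In the replicate 1 list the share was 45.9% for the starts of these genes and 52.7% for all, and in the replicate 2 list it was 50.2% for the starts of these genes and 55.2% for all. At least 1 acetylated start was found in 1356 genes (74.1%), against 62.1% of all genes. That share counts any of several starts in a gene: genes with a single start reached 63.6%, and genes with several starts under 10 kb apart reached 43.7%, with 34.0% of their clusters acetylated. The median signal value over all acetylated starts of these genes was 19.6. It was 25.5 in genes with starts under 10 kb apart and 27.9 in genes with 1 start. In genes of 2 starts, upstream starts had medians of 25.8 where acetylated alone and 28.2 where both were acetylated. Downstream starts had 14.0 and 12.1, so in genes of 2 starts the lower values lay at the downstream starts. Signal values are the authors' own, and no source used here says what they are relative to, so they were compared only within a list.

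By gene, 887 (48.5%) had both acetylated and bare starts, 469 (25.6%) had all starts acetylated and 474 (25.9%) had none. Genes just inside the rule, with gaps of 10 to 12.5 kb, had 43.2% of their clusters acetylated and 66.7% of genes with any. Genes just outside it, with gaps of 7.5 to 10 kb, had 36.0% and 54.3%. Of the acetylated starts, 1803 (81.0%) were overlapped by their highest region, and 204 (9.16%) in 92 genes shared that region with another start of the same gene. Starts that share a region are not separate measurements.

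The 2 biological replicates gave the same state at most starts. A start was acetylated in both replicates in 2026 cases (45.6%), in neither in 2199, in replicate 1 alone in 16 and in replicate 2 alone in 204. The starts found in replicate 2 alone were weak ones, with a median signal value there of 4.11, against 23.5 for those in both. All starts had the same state in both replicates in 1624 genes (88.7%). Among genes of 2 starts, 0 of 1284 had a single acetylated start in each replicate but a different one. In 53 genes the upstream start alone was acetylated in replicate 1 and both starts in replicate 2.

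The most upstream start was acetylated most often. The first start was acetylated in 62.2% of the 1830 genes and the last in 38.4%, and inner starts of genes with 3 or more were acetylated in 49.0% of cases. In the 379 genes of 3 starts the shares ran 65.7%, 48.8% and 38.0% from 5′ to 3′. In the 121 genes of 4 starts they ran 55.4%, 45.5%, 45.5% and 48.8%, with no further decline after the second start.

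**Figure D1:**
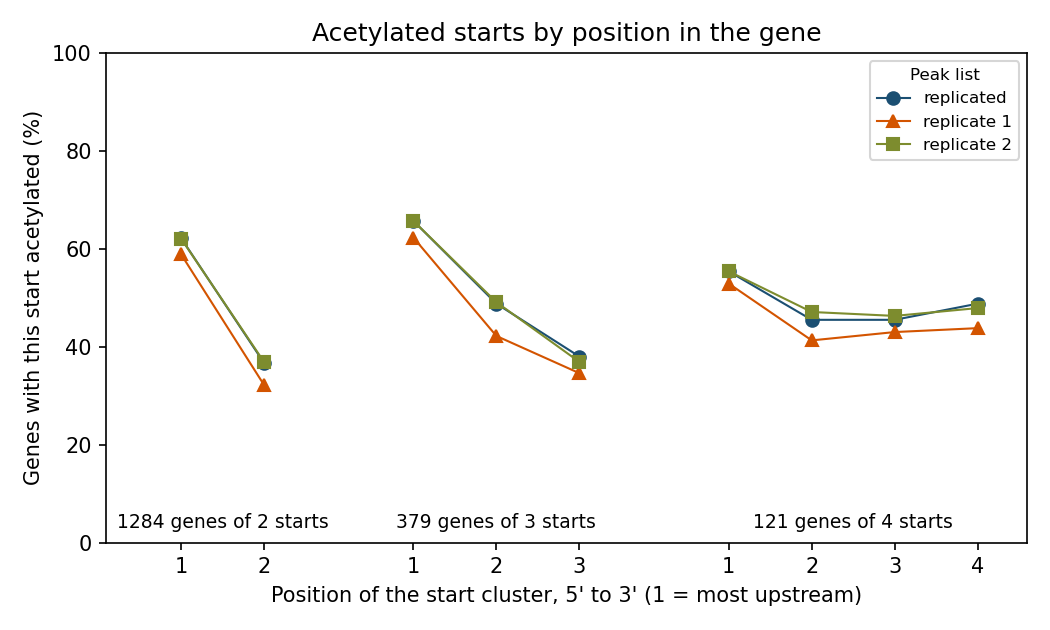
Percent of genes with an acetylated start (y axis) by the position of the start from 5′ to 3′ (x axis), for genes of 2, 3 and 4 starts, in the replicated list and the lists of both replicates. In genes of 2 starts the upstream one was acetylated in 62.2% and the downstream one in 36.7% of genes in the replicated list, and the replicate 1 list lay lowest at every position.

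In the 1284 genes of 2 starts, the upstream start alone was acetylated in 446 genes (34.7%; 467 in replicate 1 and 442 in replicate 2). The downstream start alone was acetylated in 118 genes (9.19%; 125 and 119), both in 353 (27.5%; 289 and 355) and neither in 367 (28.6%; 403 and 368). The same class was found in both replicates for 411 genes of the upstream kind, 109 of the downstream kind, 287 with both and 363 with neither. In genes of 3 or more starts with a single acetylated one, that start was the first in 91 of 144 genes (63.2%), an inner one in 38 and the last in 15. The lone upstream starts also had stronger regions, with a median signal value of 25.8, against 14.0 for the lone downstream starts.

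Some of these starts lie beside the start of another gene, which a region cannot tell apart. Another gene's start lay within 1 kb of 27.6% of the lone upstream starts and 16.9% of the lone downstream starts. Over all starts of these genes it was 18.3% of acetylated ones (8.63% for a protein-coding gene) and 6.4% of bare ones. In the 955 genes of 2 starts with no such neighbour at either start, the upstream start alone was acetylated in 33.0% and the downstream start alone in 9.42%, close to the shares over all 1284 genes.

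The order of the starts went together with their CpG content. Counted over all genes together, the first and later starts of a CpG class were acetylated about equally often. That count compares starts of different genes, and it did not hold within genes whose paired starts were both CpG-poor, as given below. A start was called CpG-rich where the 1000 bp around it had an observed over expected CpG ratio of at least 0.6 and a GC content of at least 50%. CpG-rich first starts were acetylated in 85.8% of cases and CpG-rich later starts in 85.1%. Among CpG-poor starts the shares were 37.0% for first starts and 35.3% for later ones. First starts were CpG-rich in 948 of 1830 genes, whereas later starts were CpG-rich in 328 cases and CpG-poor in 2287. Over all protein-coding starts, 89.9% of CpG-rich and 32.1% of CpG-poor ones were acetylated.

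Sorting the pairs by CpG class turned the preferred start round with it. In 611 genes of 2 starts the upstream start alone was CpG-rich, and in these the upstream start alone was acetylated in 54.7%, the downstream start alone in 1.47%, both in 32.6% and neither in 11.3%. In 103 genes the downstream start alone was CpG-rich, and these showed the mirror image, with 3.88% for the upstream start alone, 51.5% for the downstream start alone and 31.1% for both. Where both were CpG-rich (59 genes), both were acetylated in 76.3%. Where both were CpG-poor (511 genes), neither was acetylated in 54.6%, and the upstream start alone was acetylated in 20.5%, against 9.78% for the downstream start alone. In both-poor genes the upstream start led in every list, with 20.7% against 9.59% in replicate 1 and 21.7% against 9.59% in replicate 2. The near equality of CpG-poor first and later starts over all genes was therefore not seen within these pairs.

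**Figure D2:**
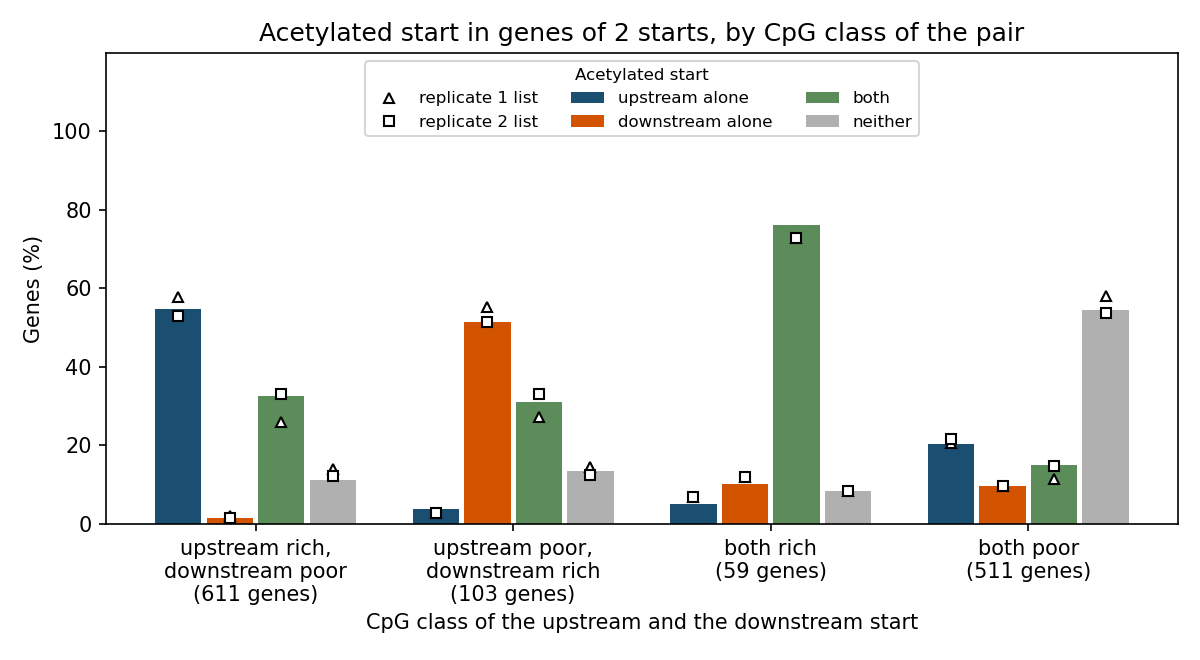
Percent of genes of 2 starts (y axis) in which the upstream start alone, the downstream start alone, both or neither were acetylated, for the 4 combinations of CpG class (x axis). Bars are the replicated list and open symbols the lists of both replicates; the upstream start alone made up 54.7% where it alone was CpG-rich, and the downstream start alone 51.5% where that start alone was CpG-rich.

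Genes with both acetylated and bare starts allow the comparison within the same genes. Their 1130 acetylated starts were CpG-rich in 57.7% of cases, with a median CpG ratio of 0.69, and their 1130 bare starts in 4.42%, with a median of 0.24. Among all starts of protein-coding genes 40.1% were CpG-rich. The acetylated start had the higher CpG ratio in 422 of 446 genes (94.6%) with the upstream start alone acetylated, and in 91 of 118 genes (77.1%) with the downstream start alone acetylated. In the sequence itself, 6 short motifs were searched on both strands from 250 bases before to 50 bases after each start, none of which contains another. GGGCGG, the core letters bound by Sp1 factors, was found at 56.4% of acetylated starts, 13.4% of bare ones and 40.2% of all protein-coding starts. TATAAA, the letters of a TATA box, was found at 7.17% of acetylated starts, 17.0% of bare ones and 14.0% of all. The myogenic E-box letters CAGCTG were found at 16.9% of acetylated starts, 16.3% of bare ones and 15.5% of all, and CCAAT at 35.7% of acetylated starts, 33.5% of bare ones and 37.7% of all. CATTCC, letters bound by TEAD factors, was found at 13.3% of acetylated starts, 15.9% of bare ones and 13.7% of all. CTAAAAATA, letters bound by MEF2, was found at 0.531% of acetylated starts, 0.531% of bare ones and 0.525% of all. A match describes letters and not a bound site. The acetylated starts also had the higher median GC content, 58.95% against 46.0% at the bare ones. Whether the motif shares differ beyond this base composition was not tested.

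**Figure D3:**
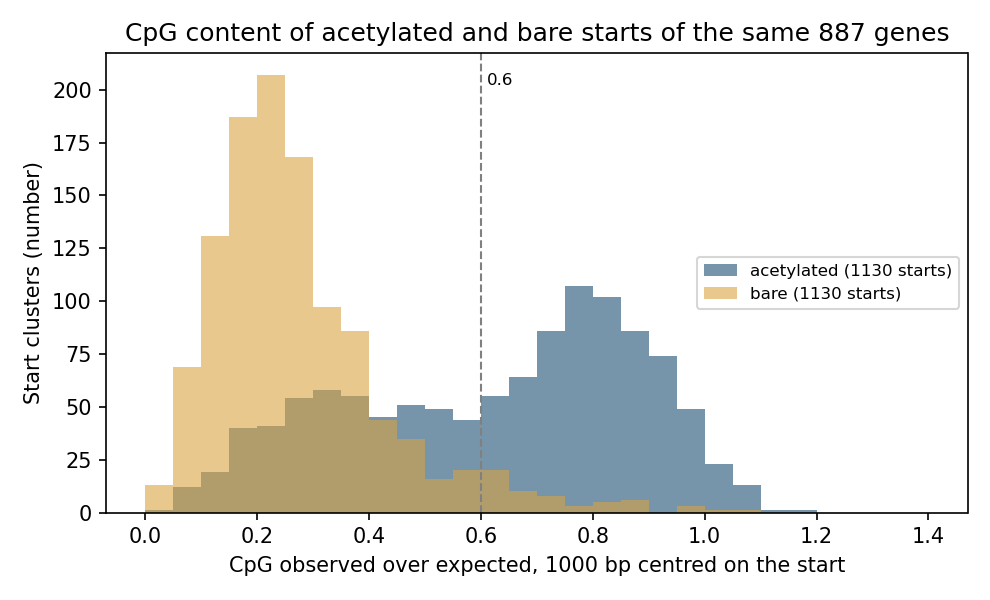
Number of start clusters (y axis) by observed over expected CpG ratio in the 1000 bp around the start (x axis), for the 1130 acetylated and the 1130 bare starts of the same 887 genes. Bare starts centred on a median of 0.24 and acetylated starts on 0.69, and the dashed line marks the ratio of 0.6 used for CpG-rich starts, which also needed a GC content of 50%.

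Bare starts were not always far from acetylated chromatin. In genes with another start acetylated, the nearest region lay a median of 11023 bp from a bare start, and 26.4% of bare starts had one within 5 kb. In genes with no acetylated start the median was 76110 bp. Regions lay between the starts, away from both, in 81.3% of genes with both starts acetylated, 57.6% with the upstream start alone, 41.5% with the downstream start alone and 14.4% with neither. The shares varied with the distance between the starts. Neither start was acetylated in 36.9% of genes at 10 to 20 kb, 23.3% at 20 to 40 kb, 20.1% at 40 to 80 kb, 25.2% at 80 to 160 kb and 32.2% beyond, and both were in 22.7%, 31.9%, 31.7%, 28.5% and 23.3% over the same distances. With the upstream start alone the share was 31.6% at 10 to 20 kb, 36.5% at 20 to 40 kb, 40.2% at 40 to 80 kb, 33.8% at 80 to 160 kb and 32.2% beyond. With the downstream start alone it was 8.7%, 8.33%, 8.04%, 12.6% and 12.2% over the same distances.

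Starts that the annotation itself favours were acetylated more often. A start with a principal transcript, the one that the APPRIS annotation takes to carry the main protein, was acetylated in 55.5% of 2603 cases, and a start without one in 42.4% of 1842. Position differed too. In 619 genes of 2 starts only the upstream start had one, and the upstream start alone was acetylated in 42.5%, the downstream alone in 6.14%. In the 221 genes where only the downstream start had one, these shares were 17.6% and 20.8%. The part of position in the pooled shares was not tested. Starts of 1 transcript were acetylated in 44.0%, of 2 in 58.5% and of 3 or more in 70.1% of cases. In 620 genes of 2 starts (48.3%) at least 1 transcript of each start shared a start codon with one of the other start. In the other 664 the start codons differed. Both starts were acetylated in 23.5% of genes with a shared start codon and in 31.2% of genes with different ones, and the upstream start alone in 36.0% of genes with a shared start codon and 33.6% of the others.

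Where both of 2 starts were acetylated, the upstream region was usually the stronger. Of 351 genes with a separate region at each start, the upstream region had the higher signal value in 240 (68.4%; 67.8% in replicate 1 and 69.4% in replicate 2). The upstream region was at least 2-fold stronger in 167 genes and the downstream region in 53, and the median ratio of upstream to downstream was 1.86 (1.59 in replicate 1 and 1.77 in replicate 2). Of 285 genes with both starts acetylated by separate regions in both replicates, 265 (93.0%) had the same stronger start in each. The direction again followed CpG content. Upstream was stronger in 83.8% of the 198 genes with the upstream start alone CpG-rich, in 28.1% of the 32 with the downstream start alone CpG-rich, in 43.2% of the 44 with both rich and in 59.7% of the 77 with both poor.

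**Figure D4:**
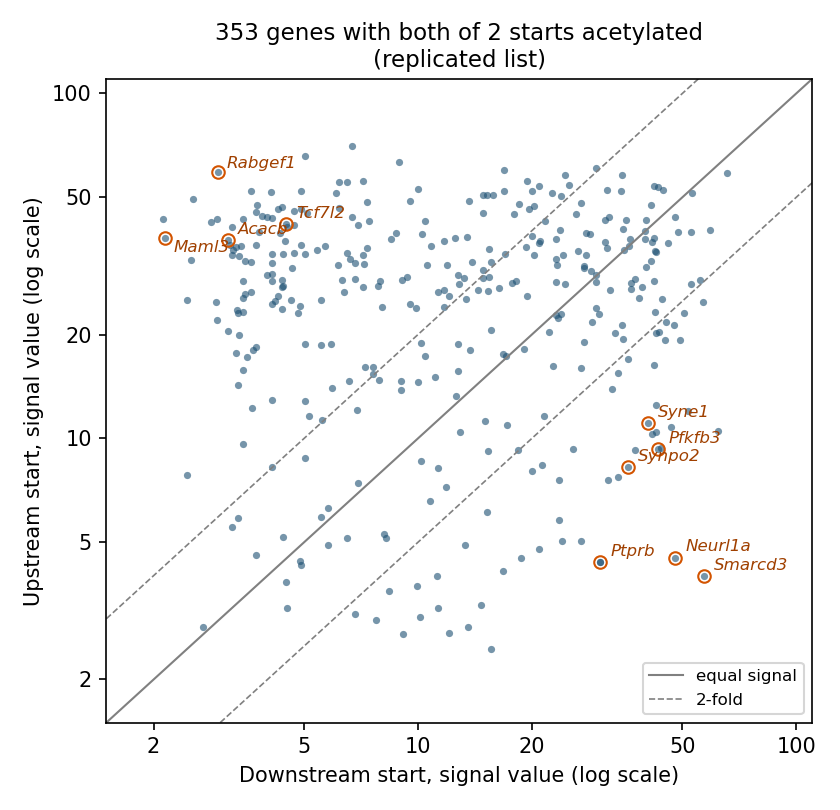
Signal value of the region at the upstream start (y axis, log scale) and at the downstream start (x axis, log scale) in the replicated list for the 353 genes with both of 2 starts acetylated; the solid line marks equal values and dashed lines a 2-fold difference. Most points lie above the line, with Rabgef1 and Maml3 among the farthest above it and Smarcd3 and Neurl1a among the farthest below.

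In the genes with the strongest lone upstream start, the region stood at a CpG-rich promoter. Signal values of a start are given in the order replicated list, replicate 1, replicate 2. Rfx3, a transcription factor of ciliary genes, had 72.5, 60.4 and 69.4 at its upstream start, and was bare at the start 28.2 kb downstream, where the nearest region lay 20490 bp away. Hdac4, a class IIa histone deacetylase that represses MEF2 factors and responds to muscle activity, had 62.6, 52.5 and 60.5 upstream, and its downstream start was bare with the nearest region 2036 bp away. Myl12b, a regulatory light chain of nonmuscle myosin, had 67.4, 27.7 and 63.5 upstream. Its region in the replicated list was 15633 bp wide, so the value need not lie at the start. Both replicates gave the upstream start alone in Rfx3, Hdac4 and Myl12b. Ctdsp2, a phosphatase gene whose intron holds a miR-26 gene, had 65.1, 56.4 and 60.2, also in a wide region (14538 bp in the replicated list). For Setd5, a chromatin regulator (69.6), another transcript starts within 1 kb, and for Mttp, a lipid transfer protein of liver and gut (63.9), the upstream start lies beside that of Trmt10a, so these regions cannot be assigned to 1 gene.

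The strongest lone downstream starts came close to those values. Mia2, which encodes a protein of cargo export from the endoplasmic reticulum, had 61.0, 48.1 and 61.8 at its downstream start, where 9 of its transcripts begin, and both its starts are CpG-poor. Triobp, an actin-binding protein gene, had 54.6, 44.5 and 53.6, and Asb8, of a family of ubiquitin ligase adaptors, had 53.2, 41.9 and 52.8. Rbpj, the DNA-binding effector of Notch signalling, had 52.8, 43.3 and 47.6 at its downstream start, 34.4 kb from the bare one. In Triobp, Asb8 and Rbpj the downstream start was CpG-rich and the upstream one was not. Pfdn4, of the prefoldin chaperone (58.8), and Fbxo15, an F-box protein (51.7), had the start of another gene within 1 kb of the acetylated start, which for Fbxo15 was Timm21.

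The largest gaps in signal value between 2 acetylated starts ran in both directions. Smarcd3 encodes BAF60c, a chromatin-remodelling subunit that partners MyoD in muscle, and its downstream region had 57.0, 48.8 and 53.9, while its upstream region had 3.99, 3.31 and 4.25. The ratio of downstream to upstream was 14.3 in the replicated list, and the lists of replicates 1 and 2 gave 14.7 and 12.7, so all lists put the downstream start far ahead. Neurl1a, a ubiquitin ligase gene (10.6), and Acer3, a ceramidase gene (6.35), had their upstream region in the replicated list alone. Ralgds, a GTPase regulator (6.93), had its upstream region in the replicated list and in replicate 2. In the opposite direction the ratio of upstream to downstream was 20.4 for Tra2b, a splicing factor, 19.9 for Rabgef1, a Rab5 activator, 19.5 for Pja2, a ubiquitin ligase, 17.9 for Maml3, a Notch coactivator, and 14.9 for Lonp2, a peroxisomal protease. Of these 5, only Rabgef1 had its downstream region in replicate 1 (ratio 12.8). The ratios in replicate 2 were 8.35 for Tra2b, 3.02 for Rabgef1, 16.1 for Pja2 and 11.1 for Maml3, and the downstream region of Lonp2 was in neither replicate's list. In all 5 the downstream region was weak in the replicated list, at 2.12 to 2.97, although in replicate 2 that of Rabgef1 reached 19.9.

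Muscle genes and the gene lists that follow can be read against the 50.1% of starts acetylated over all 1830 genes. In these shares, starts under a shared region are counted separately. The start of another gene within 1 kb is named for some genes only. Sarcomere genes with distant starts were acetylated at most of them. Of the listed sarcomere genes 6 were members, and 17 of their 21 starts (81.0%) were acetylated (14 in replicate 1 and 16 in replicate 2). In Ttn, Neb, Speg and Svil the first 2 starts share a region and are not separate measurements. Over all acetylated starts of the 1830 genes, 9.16% share a region. Titin (Ttn), the giant spring of the sarcomere, had 49.4, 37.8 and 51.3 over its first 2 starts, which share a region, and 3.24 at an internal start 145.6 kb downstream, where replicate 1 had no region. Nebulin (Neb), the ruler of the thin filament, had a value of 41.4 over its first 2 starts in the replicated list, although replicate 1 had its region at the second start alone, and it was bare at the third, 115.1 kb away. Speg, a kinase gene of the triad, had 55.8, 44.5 and 51.0 over its first 2 starts and 48.4, 38.1 and 49.4 at the third. Synpo2, myopodin of the Z-disc, had 35.9, 25 and 39.2 at its downstream start and 8.24, 6.63 and 8.95 at the start 119.1 kb upstream, a ratio of downstream to upstream of 4.35 (3.76 and 4.38). Nebl, nebulette of heart muscle, was nearly bare: 4.12 at the first start in the replicated list, none in replicate 2, and bare at the other 3. Svil, supervillin, was acetylated at all 6 starts in the replicated list and at 5 in replicate 1. In the replicated list and replicate 2 it was strongest at start 3 (30.1, 29.0 and 33.3) and start 4 (31.5, 2.29 and 34.1). In replicate 1 start 4 was weak.

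Genes of the membrane, triad and cytoskeleton were acetylated at the first start in 9 of 13 genes and at the last in 10. Over all 1830 genes the shares were 62.2% for the first start and 38.4% for the last. All 13 members had an acetylated start, against 74.1% of all 1830 genes. Among genes of 3 or more starts, 19.6% had none acetylated. Of their 44 starts, 33 (75.0%) were acetylated (31 in replicate 1 and 33 in replicate 2). Ank1 was bare at its first 2 starts and had 22.1, 15.6 and 26.0 at the third and 52.9, 41.9 and 52.8 at the fourth, so the strongest start was the most 3′ one in each list. Ank3, ankyrin-G, was also bare at its CpG-rich first start, with 28.4 at the second, 12.6 at the third and 32.4 at the fourth, which spread over 526.8 kb. Sgcd had 30.6, 22.0 and 34.6 at the downstream start and was bare at the upstream one, with the nearest region 198901 bp away. Dtnb had 12.1, 11.4 and 11.2 upstream. Syne1, nesprin-1 of the nuclear envelope, had 11.1, 11.1 and 10.7 upstream and 40.5, 28.9 and 44.1 at the start 481.6 kb downstream, beside the start of Gm10097. Asph, whose shorter products include junctin of the triad, had 21.3, 15.2 and 29.0 upstream and 47.6, 35.6 and 47.6 downstream. Plec, plectin, has alternative first exons that are known to send the protein to different places in the fibre. All 7 of its starts were acetylated, but 5 of them lie under 1 region with a value of 54.6 and the first 2 under another (34.5). Dysferlin (Dysf), of membrane repair, had 28.0, 20.1 and 30.9 upstream and 24.4, 18.9 and 18.6 downstream, so the values were nearly equal in replicate 1 but not in replicate 2. Utrophin (Utrn), the relative of dystrophin, had 33.5, 27 and 32.9 at its first start and at most 3.33 at the others in the replicated list. Dst, the cytoskeletal linker dystonin, was strongest at start 3 (40.1, 34.0 and 39.3) and bare at start 4, and Sptbn1, beta-spectrin, had 40.3, 36 and 28.8 at start 1, beside the start of Gm8098, and 6.75 at start 3.

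Transcription regulators of muscle had the highest share of acetylated starts among the lists, 44 of 50 (88.0%) in 17 genes (41 in replicate 1 and 44 in replicate 2). Tcf4, a partner of myogenic factors, was acetylated at all 8 starts, from 11.1 to 47.7, and Foxp1, a forkhead factor, at all 5, from 3.09 to 45.0 (3 of 5 in replicate 1). Rora, the nuclear receptor ROR-alpha, had 28.8, 21.1 and 30.2 upstream and 55.7, 45.2 and 50.8 at the start 635.9 kb downstream, and both starts are CpG-rich. Sox6, a repressor of slow-fibre genes, was strongest at its second start (44.7, 34.1 and 43.4), beside the start of Sox6os, and bare at the third. Nfat5 had 50.7, 40.7 and 50.1 at the upstream start alone, and Zfhx3, a large homeobox and zinc finger factor, 46.2, 36.9 and 46.1 at the downstream start alone, with the nearest region 91716 bp from the upstream one. Hdac9, another class IIa deacetylase, had 15.4, 9.0 and 19.9 at its upstream start alone, although that start is CpG-poor. Nfic, a nuclear factor I gene, was bare at start 1 and had 40.6, 27.6 and 42.4 over starts 2 and 3, which share a region. Tcf7l2, a Wnt effector, was 9.36-fold stronger upstream in the replicated list (7.17-fold in replicate 1 and 5.46-fold in replicate 2).

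Energy metabolism genes had 16 of 24 starts (66.7%) acetylated in 9 genes (15 in replicate 1 and 16 in replicate 2). Hexokinase-1 (Hk1) was bare at 3 of its 4 starts and had 16.7, 13.5 and 17.6 at the last, beside the start of Hk1os. Pyruvate carboxylase (Pcx) had 46.9, 33.6 and 50.1 at its upstream start alone. Lpin1, a phosphatidate phosphatase and coactivator, had 30.6, 4.03 and 34.7 at start 1 and 26.1, 23.2 and 29.5 at start 3, so replicate 1 gave a weak value at start 1. Pfkfb3, an enzyme that sets the level of the activator of glycolysis, was 4.62-fold stronger downstream (4.35-fold in replicate 1 and 4.83-fold in replicate 2). Acacb, acetyl-CoA carboxylase 2 of muscle mitochondria, had 37.6, 31.5 and 40.2 upstream and 3.14 downstream, where replicate 1 had no region. Acsl1, which activates fatty acids, had 36.4, 45.2 and 42.1 at start 1 and 17.5, 14.8 and 19.6 over starts 2 and 3. Prkag2, a regulatory subunit of the energy sensor AMPK, was acetylated at all 3 starts (19.7, 8.80 and 29.8 in the replicated list). Pfkfb2, a relative of Pfkfb3, was bare at start 1 and had 26.9, 26.5 and 29.8 over starts 2 and 3. Acaca, the lipogenic carboxylase of fat and liver, was bare at both.

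Signalling genes had 30 of 47 starts (63.8%) acetylated in 13 genes (28 in replicate 1 and 30 in replicate 2). In the cAMP phosphodiesterases Pde4d and Pde4b the 3′ starts were acetylated. Pde4d had 9 starts over 1273 kb: the first 3 were bare, including a CpG-rich one, and the other 6 were acetylated, with the highest value at the seventh (40.3, 29.6 and 41.6). That seventh start lies beside the start of Mir1904. Pde4b had 7 starts, of which the first 4 were bare and the last 3 lay under 1 region with a value of 58.2. The long and short forms that such starts give are known to differ in their regulatory domains. Pde4a, in contrast, was acetylated at the first start (3.61) and the second (34.0, 26.5 and 34.8) and bare at the third. At that first start replicate 1 had no region. Rcan1 had 30.6, 23.2 and 31.3 at start 2 and 23.5, 18 and 25.7 at start 4. Agrn, agrin of the neuromuscular junction, was 9.02-fold stronger upstream (8.38-fold and 8.06-fold in the replicates), and Grb10, an inhibitor of insulin signalling, had 20.5 at the first start and 34.4 at the third. Akap1, which anchors protein kinase A at mitochondria, had 50.5, 41.2 and 51.0 upstream and 23.8, 8.69 and 23.9 downstream, beside the start of 4930556N13Rik. Pde7a, another cAMP phosphodiesterase, had 38.2, 25.3 and 42.5 upstream and 12.5, 10.6 and 14.4 downstream. Protein kinase C alpha (Prkca) had 41.7, 35.9 and 37.6 at the upstream start alone. Cblb, a ubiquitin ligase induced in unloaded muscle, had 43.3, 36.6 and 41.4 upstream, and its downstream region (2.94) was in neither replicate's list. Nrg1, neuregulin-1 made by motor neurons, was bare at all 3 starts, with no region closer than 500559 bp.

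**Figure D5:**
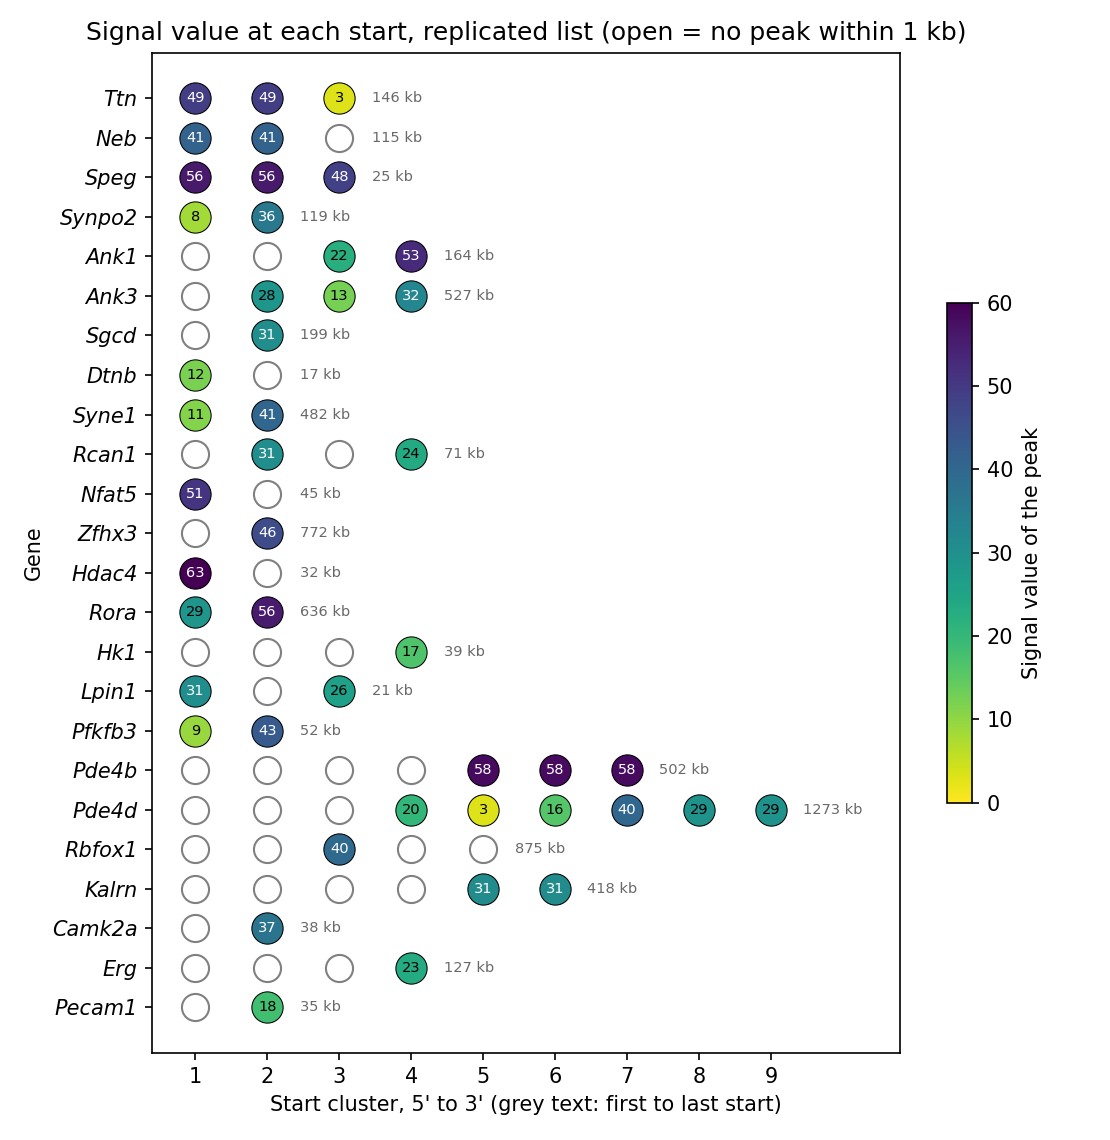
Signal value in the replicated list at each start of 24 named genes, one gene per row with starts in 5′ to 3′ order on the x axis; filled circles are acetylated starts with their rounded signal value, open circles are bare starts, and grey text gives the distance from the first to the last start. Neighbouring circles with the same value, as in Pde4b, lie under 1 shared region; Ank1, Hk1, Pde4b and Pde4d were bare at their first starts and acetylated at the last ones.

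Genes known from neurons showed the lowest share, 25 of 93 starts in 27 genes (26.9%; 24 in replicate 1 and 28 in replicate 2), and 8 of the 27 genes were bare throughout, against 25.9% of all 1830 genes. Another 18 of the 27 had both acetylated and bare starts, against 48.5% of all 1830 genes. The 27 genes had more starts per gene than the 1830 genes with their 4445. Among genes of 3 or more starts, 59.2% had both kinds and 19.6% had none acetylated, so these counts are not read as a neuronal trait. Camk2a, CaM kinase II alpha of neurons, was bare at its upstream start and had 36.9, 25.1 and 42.4 at the start 37.9 kb downstream; an internal promoter of the gene is known to make alpha-KAP, an anchoring protein of muscle. Rbfox1, a splicing factor of neurons and muscle, was acetylated only at the third of 5 starts (39.7, 30.1 and 42.3). Kalrn, a guanine nucleotide exchange factor, was acetylated only at the last 2 of 6 starts, which share a region (31.1, 20.6 and 35.4). Dlg2, a synaptic scaffold, was acetylated at the first of 4 starts (32.0, 23.5 and 34.4). Mapt, the microtubule protein tau, had 37.1, 28.2 and 39.1 at the upstream start alone. Auts2, a regulator of neuronal development, was acetylated at 3 of 5 starts, with 12.9, 9.94 and 13.4 at start 1 and 28.9, 22.7 and 29.1 at start 4. Dlg4, the synaptic scaffold PSD-95, was the 1 neuronal gene acetylated at every start, with 10.5 over starts 1 and 2 and 12.4 over starts 3 and 4. Elavl2, Elavl4, Kcnip4 and Dpp6, genes of neuronal RNA binding and potassium channels, were bare at all 4 starts of each gene. These lists were made for this muscle with earlier results known, and their shares describe the genes in them.

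Genes of other cells in the muscle were also acetylated at some starts and bare at others. In genes of vessels and fibroblasts 19 of 26 starts (73.1%) were acetylated in 9 genes (19 in each replicate), against 50.1% over all 1830 genes. Erg, an endothelial transcription factor, was acetylated at the last of 4 starts (23.4, 19.2 and 25.1), and Pecam1, an endothelial adhesion molecule, at the downstream of 2 (18.3, 12.8 and 20.1). Ptprb, the endothelial phosphatase VE-PTP, was 6.93-fold stronger downstream (6.24-fold and 6.92-fold in the replicates). Mylk, whose 3′ products include telokin of smooth muscle, had 5.92, 4.26 and 6.49 at its downstream start alone. Caldesmon (Cald1), an actin-binding protein of smooth muscle, had near equal values of 13.2 and 12.6 at its 2 starts, 110.9 kb apart. Smoothelin (Smtn) had 29.0, 24.2 and 36.4 over starts 1 and 2 and 24.9, 19.3 and 42.8 at start 3, so replicate 2 had the reverse order. Lpp, a focal adhesion protein, had 47.6, 38.4 and 46.3 at start 1, beside the start of Lppos, and Prkg1, the cGMP-dependent kinase, had 14.9 at start 1 and 7.08 at start 2, both genes being bare at start 3. Egfl7, the endothelial gene that hosts miR-126, had all 5 starts under 1 region (25.8).

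Of the starts of 5 blood genes, 5 of 11 (45.5%) were acetylated (4 in replicate 1 and 5 in replicate 2), near the 50.1% over all 1830 genes. Bach2, a lymphocyte repressor, had 31.8, 26.8 and 31.3 and Inpp5d, the phosphatase SHIP1, 11.2, 9.47 and 13.3 at the upstream start alone. Dock2 and Runx3 were bare, and Runx1, a blood-forming transcription factor, had 3.09 at its first start and 15.4 at starts 2 and 3, which share a region. Replicate 1 had no region at the first start of Runx1. In the list of fat, nerve sheath and epithelium 6 of 13 starts (46.2%) were acetylated in 6 genes (5 in replicate 1 and 7 in replicate 2), also near 50.1%. Pparg, a nuclear receptor of fat, had 13, 11.8 and 13.2 at its first 2 starts, which share a region, and was bare at the third. In known gene structure the downstream promoter makes the fat-cell form, PPAR-gamma 2. Trp63, the p63 gene of epithelium, had 28.8, 18 and 33.3 at its upstream start, that of the TA forms, and 4.38 at the downstream one, where replicate 1 had none. Mbp, myelin basic protein, had 6.31, 5.92 and 6.26 upstream, and its downstream start had a region in replicate 2 alone (4.47). Prlr, the prolactin receptor, and Trp73 were bare.

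The most acetylated starts were found in Tcf4 (8) and Plec (7), followed by Pde4d, Add3, Dab2ip and Svil with 6 each. Add3, adducin of the membrane skeleton, had 33.3, 23.1 and 38.9 over its first 4 starts, 8.69 at start 5 and 21.2 at start 6. Dab2ip, a Ras GTPase activator, was acetylated at all 6 starts in every list, from 10.1 to 33.9 in the replicated list. Each of these genes had at least 2 starts under a shared region.

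The widest spacing rests on 1 annotated transcript. The 2857087 bp between the starts of Fgfr2, a fibroblast growth factor receptor, came from 1 transcript that begins within 1 kb of the start of Ctbp2; that start had 28.6, 25.7 and 38.5, against 4.12, 3.55 and 4.47 at the other. Cntnap2, a neuronal adhesion protein, had a weak region (4.38) at the downstream start, absent in replicate 1, and Lrp1b, a lipoprotein receptor relative, was bare at all 3 starts. Lsamp, a neuronal surface protein, had 3.87 at its downstream start alone.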

How the data were processed

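H3K27ac ChIP-seq of gastrocnemius had been summarised by the authors as peak lists on mm10. Each region carries a signal value and a −log10 q value as the authors deposited them; the signal was used to rank and compare regions within a list, and the −log10 q value for a stricter alternative. The aligner, the peak caller and its thresholds were not given in the sources used here. Lists hold no read counts, so depth is unknown and values have no counting interval. Which list belongs to which replicate was taken from the deposited descriptions; the list of pooled replicates served as an alternative. Reads of a hybrid strain had been placed on the reference genome, and the effect was not tested.

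Starts came from GENCODE M21 basic and sequence from GRCm38.p6 (NCBI RefSeq). A gene's representative start is that of most transcripts in a cluster, and its value is that of the highest region within 1000 bp; coordinates are 1-based. Genes were named where they belonged to a muscle or cell type list, or ranked highest in the strength of a lone start, the ratio between starts, the number of acetylated starts or the gap. Sequences are those of Rcan1 and of genes with a lone upstream or downstream start in the sarcomere, membrane and transcription lists, with Ank1 added later. A gene of the lists and a sequence that the rule would give are not reported here. The members and lists were chosen with earlier results of these data known. No test was made, as there is 1 group, and starts are not replicates of a condition. Python 3.11.15, numpy 2.4.6, pandas 2.3.3, pysam 0.24.0 and matplotlib 3.10.9 were used, and the assignment of regions to starts was tested on simulated data. Motifs were counted on both strands. Alternatives changed the merging, gap, peak distance, summit, list and neighbouring starts.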

Additional observations from a re-analysis of the deposited data

How the results depend on the processing

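The alternatives were computed for 11 summary values, and 126 of the 143 alternative values stayed within the spread allowed. That spread was a factor of 1.5 for counts and the standard deviation between the replicate lists for percentages. Settings of the regions could not change the numbers of genes and start clusters. Using the starts of all transcripts returned the main value for all 11. The 126 is therefore not a measure of robustness. Genes with all starts acetylated (469) were fewer than genes with none (474), but outnumbered them at 20 kb (335 against 277), with regions within 2 kb (525 against 447) and in the pooled list (476 against 456). The share of starts acetylated (50.1%) was 44.5% with the summit within 1000 bp, 46.7% without starts near another gene's start, and 45.9% to 50.2% in single replicates. A gap of at least 20 kb, which fewer genes meet, left 277 genes with no acetylated start, 297 with the upstream start alone and 77 with the downstream start alone. The share with the stronger region upstream (68.4%) was 67.1% with starts merged within 500 bp, 70.2% at 20 kb, 66.5% with regions within 500 bp, 69.7% within 2 kb and 66.8% by summit. CpG-rich shares of acetylated starts in genes with both kinds (57.7%) were 54.5% with regions within 2 kb, 53.9% without starts near another gene's start, and 57.2% to 59.7% in single replicates. Of bare starts (4.42%) they were 5.28% at 20 kb, 5.48% by summit, and 4.45% to 4.87% in single replicates. No paired analysis was possible because there is 1 group. Read depth is unknown, so a bare start may also be one below detection.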
